A study of Mus musculus with 13 samples.

Results

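The comparison described here asks what changes in the gut epithelium when p53 is removed in addition to casein kinase Iα (CKIα, gene Csnk1a1). It sets the 2 arrays titled CKIalpha KO/p53 KO (1) and (2) against the 2 arrays titled CKIalpha KO (1) and (2), which makes 4 of the 13 arrays of the series. The mice carried a gut-specific knockout of CKIα in both copies (CKIα KO) or in 1 copy (CKIα Het), and were crossed with p53 or p21 knockout mice, all on the genetic background 129/SVJ. RNA came from cells labelled enterocyte. The groups used were CKIα KO, CKIα KO/p53 KO, CKIα Het, CKIα Het/p53 KO and CKIα KO/p21 KO, with CKIα Het/p21 KO entering through the pooled spread, so that every array of the main comparison lacks CKIα in the gut. The labels do not give the promoter that drove the deletion, the age or the sex of the mice, or how enterocytes were isolated. Each group has 2 arrays, called biological replicates, and the labels do not say whether each came from a separate mouse. The p-values therefore measure the spread between these arrays, pooled over 6 groups, and the number of arrays limits their precision. Of 19938 genes with a probe set of their own, 16721 passed the filter on dim genes and were tested with limma, and genes with an adjusted p under 0.05 (Benjamini-Hochberg over all genes tested) were called. Levels below are log2 intensities, and differences are log2 differences, CKIα KO/p53 KO minus CKIα KO, with the standard error of the fit.

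An array titled CKIalpha KO/p53 KO (3) carries the genotype and source label CKI KO. It was left out of the test because these labels disagree, and its values are given beside the groups. At 66 of the 78 genes called higher and at 27 of the 38 genes called lower in CKIα KO/p53 KO, it lay nearer to the CKIα KO mean than to the CKIα KO/p53 KO mean. Added to CKIα KO/p53 KO, as its title has it, it left 0 genes called in either direction, and added to CKIα KO, as its genotype label has it, it gave 97 higher and 44 lower, with 77 of the 116 original calls among them.

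p53 is a transcription factor that is stabilised by DNA damage and other stress. It activates genes that halt the cell cycle (such as p21), repair DNA, trigger cell death or, like its own inhibitor Mdm2, feed back on p53. CKIα primes β-catenin, which carries the Wnt signal to the nucleus, for destruction, and it also restrains p53 together with Mdm4, so its loss is known to activate both pathways in the gut. In the crypts of the intestine Wnt signalling sustains stem and dividing cells, while cells that leave the crypt mature into absorptive enterocytes or secretory cells.

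Csnk1a1 lay between 10.49 and 10.80 on these arrays and on the third array. Its probe set spans the gene and the deleted exons are not named, so this level checks no genotype. Neither Trp53 nor Cdkn1a, the genes of p53 and p21, has a probe set of its own in the annotation. The epithelial adhesion gene Epcam lay between 11.37 and 11.66 on the 4 arrays. Across genes the replicates of a group had an SD of 0.289 in CKIα KO and 0.269 in CKIα KO/p53 KO, within a range of 0.204 to 0.341 over the 6 groups. On the first principal component the CKIα KO arrays lay at -13.4 and 12.4 and the CKIα KO/p53 KO arrays at 44.7 and 53.5. Replicate 2 of CKIα KO/p21 KO reached 54 on this component, while replicate 1 of that group stood at 6.91. A high position there was therefore not limited to arrays with p53 knocked out. Xist, which coats the inactive X chromosome, was low (3.94 and 3.85) on replicate 1 and high (9.36 and 9.77) on replicate 2 of the groups compared, so each group held 1 array of each kind. The main fit leaves any difference between the kinds in the spread of the replicates.

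Adding p53 loss to CKIα loss raised the protease Plat, the transcription factor Prox1, the amino acid transporter Slc38a4, the Wnt inhibitor Nkd1 and the cytochrome P450 Cyp1b1 most, by 6.42-fold to 12.8-fold. It lowered the D-glutamate cyclase Dglucy and the p53 targets Eda2r and Ccng1 by 4.15-fold to 6.91-fold. In all 116 genes were called, 0.694% of the genes tested, of which 78 were higher (0.466%) and 38 lower (0.227%). These shares are the ones to set beside the calls counted in each list below. Of all genes tested 3727 had an unadjusted p under 0.05, of which 2150 were higher and 1577 lower, and the median difference over all genes tested was -0.03. Most calls were near the threshold, with a median adjusted p of 0.0458. The calls just inside it were Amn (0.0488), Mboat2 (0.049) and Gpld1 (0.0498), and the centromere gene Cenpi (0.0501), the chromatin remodeller Hells (0.0504) and the Wnt inhibitor Dkk3 (0.0506) lay just outside.

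The number of calls moved with single arrays. Without CKIα KO replicate 1 limma called 3 genes higher and 4 lower, and without CKIα KO/p53 KO replicate 2 it called 11 higher and 1 lower, with 6 of the 116 calls kept in each case. Without CKIα KO replicate 2 it called 170 higher and 71 lower. Arrays of the other groups enter through the pooled spread alone: leaving out either CKIα Het, CKIα Het/p21 KO or CKIα Het/p53 KO array gave 15 or 16 higher and 4 to 10 lower, and leaving out either CKIα KO/p21 KO array gave 910 higher and 535 lower. With the replicate number as a block, which also separates the arrays of low and high Xist, it called 218 higher and 120 lower, all 116 among them, and each kind holds 1 array a group, so no test within a kind was possible. A fit on the 4 arrays alone called 11 higher and 16 lower, 12 of them among the 116. No called gene turned its sign in any of the 21 alternatives. Most of these alternatives alter only the spread and leave the difference as it was, so no sign could turn there. Leaving out replicate 1 or replicate 2 of a group outside the contrast gives the same fit, so the 21 are not independent checks. Dglucy, Cyp1b1 and Slc38a4 were called in 20 of the 21, lost when the third array was added to CKIα KO/p53 KO.

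**Figure D1:**
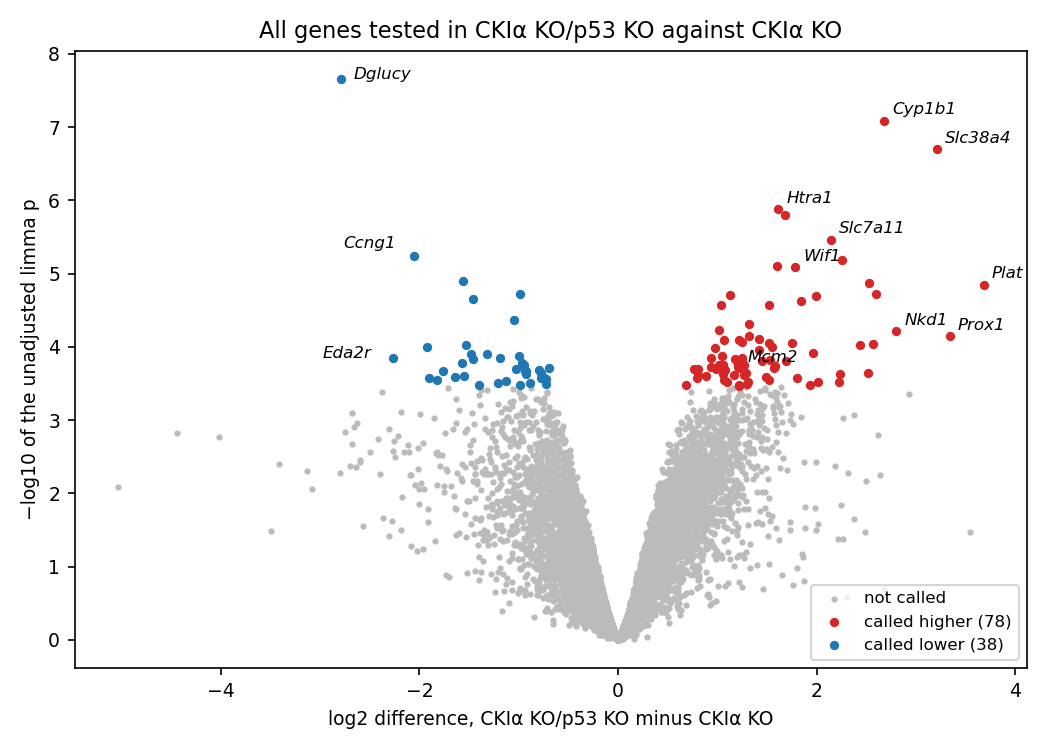
Log2 difference (CKIα KO/p53 KO minus CKIα KO, x axis) against −log10 of the unadjusted limma p (y axis) for 16721 genes; red marks 78 genes called higher, blue 38 called lower, grey the rest. Dglucy at -2.79 stands highest on the left, and Cyp1b1 at 2.68 and Slc38a4 at 3.21 on the right.

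The p53 target genes called lower were few, though most measured targets had a difference below 0. In CKIα KO/p53 KO the called ones lay below both CKIα Het arrays. Ccng1, the cyclin G gene that feeds back on p53 through Mdm2, had 10.63 and 11.44 in CKIα KO, 9.06 and 8.91 in CKIα KO/p53 KO, and 9.55 and 9.66 in CKIα Het. Both CKIα KO/p53 KO arrays lay below the CKIα KO and CKIα Het arrays, though a CKIα Het/p53 KO array was also at 9.06. The fall from CKIα KO was 2.05 ± 0.23 on the log2 scale, or 4.15-fold (adjusted p = 0.0137). Eda2r, a death receptor of the TNF receptor family, had 4.87 and 6.11 in CKIα KO, 3.21 and 3.25 in CKIα KO/p53 KO, and 3.75 and 3.44 in CKIα Het. It fell by 2.26 ± 0.38 (adjusted p = 0.0458), with no overlap of the groups, and was called in 9 of 21 alternatives against 18 for Ccng1. Casp1, the protease that activates interleukin 1, had 8.93 and 9.10 in CKIα KO and 8.37 and 8.21 in CKIα KO/p53 KO, beside 9.12 and 9.19 in CKIα Het (-0.73 ± 0.13, adjusted p = 0.0487), and was called in 7 of 21 alternatives. On the third array Ccng1 was at 11.22 and Eda2r at 6.07, within the range of the CKIα KO arrays.

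Of 18 measured p53 targets of the feedback and cell cycle list, 0 were called higher and 1 lower (Ccng1). Their median was -0.62 beside -0.03 over all genes, with 15 below 0 and 3 above. Both CKIα KO/p53 KO arrays lay below both CKIα KO arrays at 9 of them, where 25.8% of all genes tested did so. The spindle protein Psrc1 had 6.08 and 6.82 in CKIα KO and 5.06 and 4.95 in CKIα KO/p53 KO (-1.45 ± 0.32, adjusted p = 0.058). The RNA-binding protein Zmat3 had 6.51 and 7.21 against 5.87 and 5.76 (-1.05 ± 0.24, adjusted p = 0.0611). The stress protein Sesn2 had 6.14 and 7.03 against 5.6 and 5.30 (-1.14 ± 0.27, adjusted p = 0.0633). All of these lay apart between the groups without passing the test, as did the p53 inhibitors Mdm2 (8.75 and 8.92 against 7.97 and 8.25, -0.72 ± 0.21, adjusted p = 0.0955) and Mdm4 (-0.81 ± 0.22, adjusted p = 0.0798). The kinase Plk2, in contrast, had 7.23 and 8.62 against 7.40 and 8.74, and its groups overlapped (0.15 ± 0.48, adjusted p = 0.891).

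Of 16 measured p53 targets that act in cell death, 0 were called higher and 2 lower (Eda2r and Casp1), with a median of -0.23. Here 15 lay below 0 and 1 above. At 7 both CKIα KO/p53 KO arrays lay below both CKIα KO arrays (25.8% of all genes tested). The receptors Tnfrsf10b (-0.76 ± 0.18, adjusted p = 0.065) and Fas (-0.78 ± 0.24, adjusted p = 0.103) did not pass. The mitochondrial death genes Bbc3 (Puma, -0.21 ± 0.15) and Pmaip1 (Noxa, -0.04 ± 0.19) and the apoptosome gene Apaf1 (-0.27 ± 0.16) differed by less. Of 16 measured targets in repair and metabolism, 0 were called in either direction, with a median of -0.12. In this list 11 lay below 0 and 5 above. At 5 both CKIα KO/p53 KO arrays lay below both CKIα KO arrays (25.8% of all genes tested). The epoxide hydrolase Ephx1 had 8.22 and 9.91 in CKIα KO and 7.37 and 6.44 in CKIα KO/p53 KO, and this difference did not pass (-2.16 ± 0.54, adjusted p = 0.0701). The damage polymerase Polk (-0.63 ± 0.18, adjusted p = 0.0862) and the nuclease Ercc5 (-0.58 ± 0.17, adjusted p = 0.0924) did not pass either.

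Dglucy, a mitochondrial enzyme that converts D-glutamate, had the smallest adjusted p of all genes and belongs to none of the p53 lists. It had 8.65 and 8.58 in CKIα KO and 5.81 and 5.85 in CKIα KO/p53 KO, and fell by 2.79 ± 0.17, or 6.91-fold (adjusted p = 0.000366). Its level was 8.51 and 8.42 in CKIα Het, 8.26 and 7.99 in CKIα Het/p53 KO and 8.77 and 8.27 in CKIα KO/p21 KO, so the CKIα KO/p53 KO arrays stood apart from each of these groups. Of 7 measured CDK inhibitors, which halt the cell cycle beside p21, 0 were called. Cdkn2b, the p15 gene, came nearest, with 9.08 and 8.99 against 7.54 and 7.88 (-1.32 ± 0.25, adjusted p = 0.0516), while Cdkn2a, the p16 and p19 gene, had overlapping groups (-0.03 ± 0.19).

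**Figure D2:**
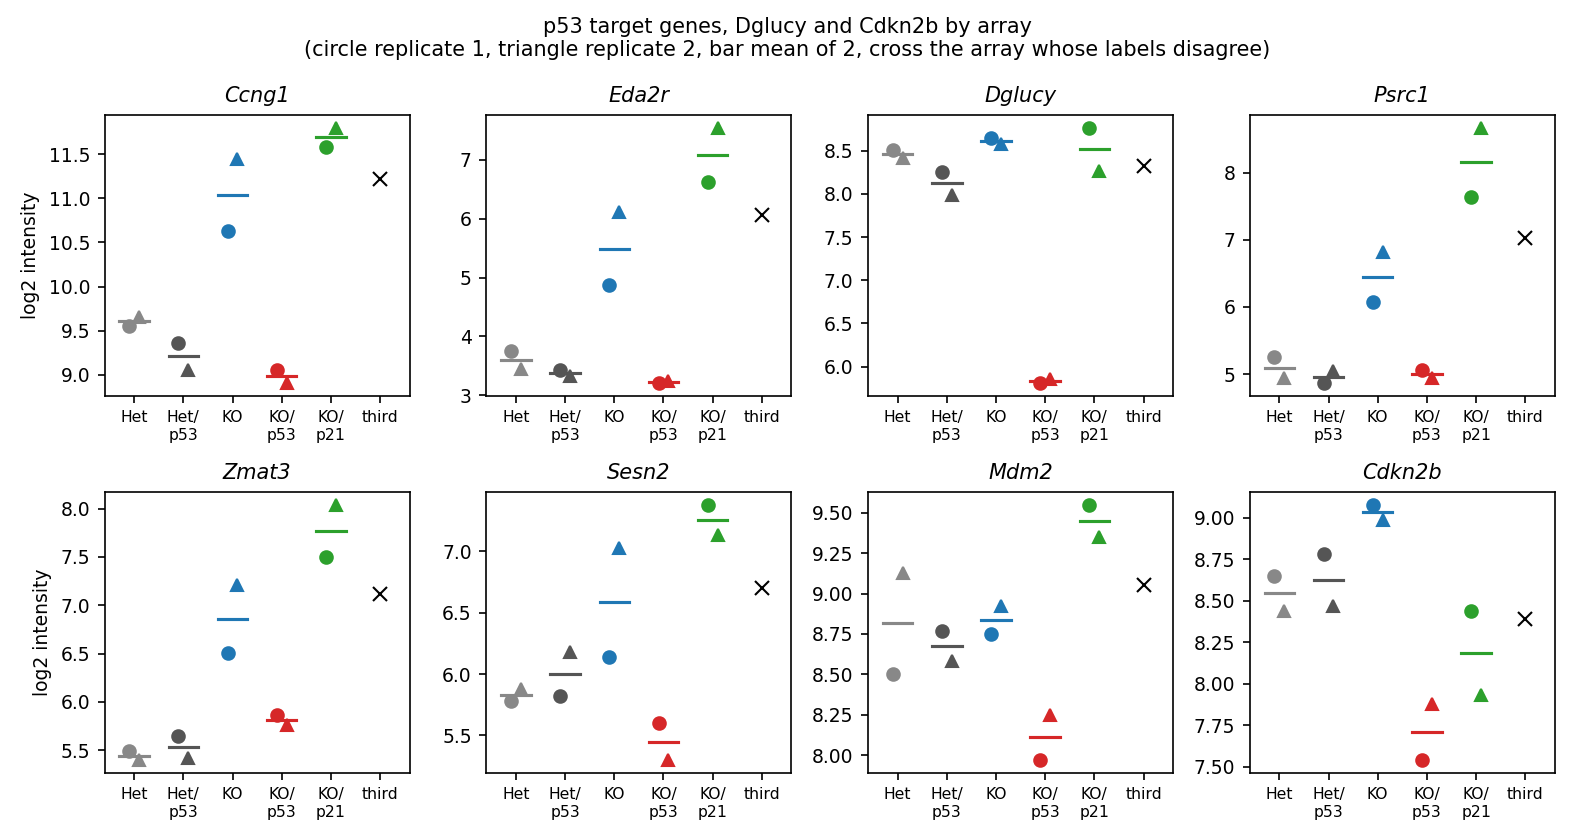
Log2 intensity (y axis) of 6 p53 target genes, Dglucy and Cdkn2b on each array of 5 groups and on the third array (x axis); circles are replicate 1, triangles replicate 2, bars the mean of 2 arrays, and the cross is the array whose labels disagree. Ccng1 and Eda2r have their lowest mean in CKIα KO/p53 KO and their highest in CKIα KO/p21 KO, and Dglucy is low in CKIα KO/p53 KO alone among the groups drawn.

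The genes that rose included all 5 of a list that holds Plat, Prox1 and the interferon-induced membrane proteins Ifitm1, Ifitm2 and Ifitm3. These 5 were put on the list because work on these mice named them as genes that p53 restrains, so their direction is not independent evidence. Plat, the tissue plasminogen activator, had 4.59 and 5.47 in CKIα KO and 8.16 and 9.26 in CKIα KO/p53 KO, a rise of 3.68 ± 0.46, or 12.8-fold (adjusted p = 0.0182). Prox1, a homeobox factor and Wnt target, had 4.43 and 5.13 against 7.76 and 8.49 (3.34 ± 0.51, adjusted p = 0.0438). Neither gene overlapped between the groups. Plat was called in 17 of 21 alternatives and Prox1 in 11.

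The Ifitm genes are neighbours on chromosome 7 that encode small membrane proteins best known for blocking the entry of viruses. Ifitm1 had 5.81 and 5.43 in CKIα KO and 7.81 and 8.58 in CKIα KO/p53 KO (2.57 ± 0.41, adjusted p = 0.0438). Ifitm2 had 7.47 and 7.74 against 9.08 and 9.63 (1.75 ± 0.28, adjusted p = 0.0438). Ifitm3 had 7.30 and 7.63 against 9.72 and 10.26 (2.52 ± 0.45, adjusted p = 0.046). The groups lay apart at all 3, and the calls of Ifitm1, Ifitm2 and Ifitm3 held in 11, 12 and 7 of 21 alternatives. The genes are close relatives in sequence, and whether their probe sets share targets was not tested. Of 23 other measured genes of interferon response and antigen presentation, 0 were called, with a median of -0.33, and the MHC class II gene H2-Ab1 had 11.17 and 9.12 against 8.20 and 7.99 (-2.05 ± 0.62, adjusted p = 0.1).

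**Figure D3:**
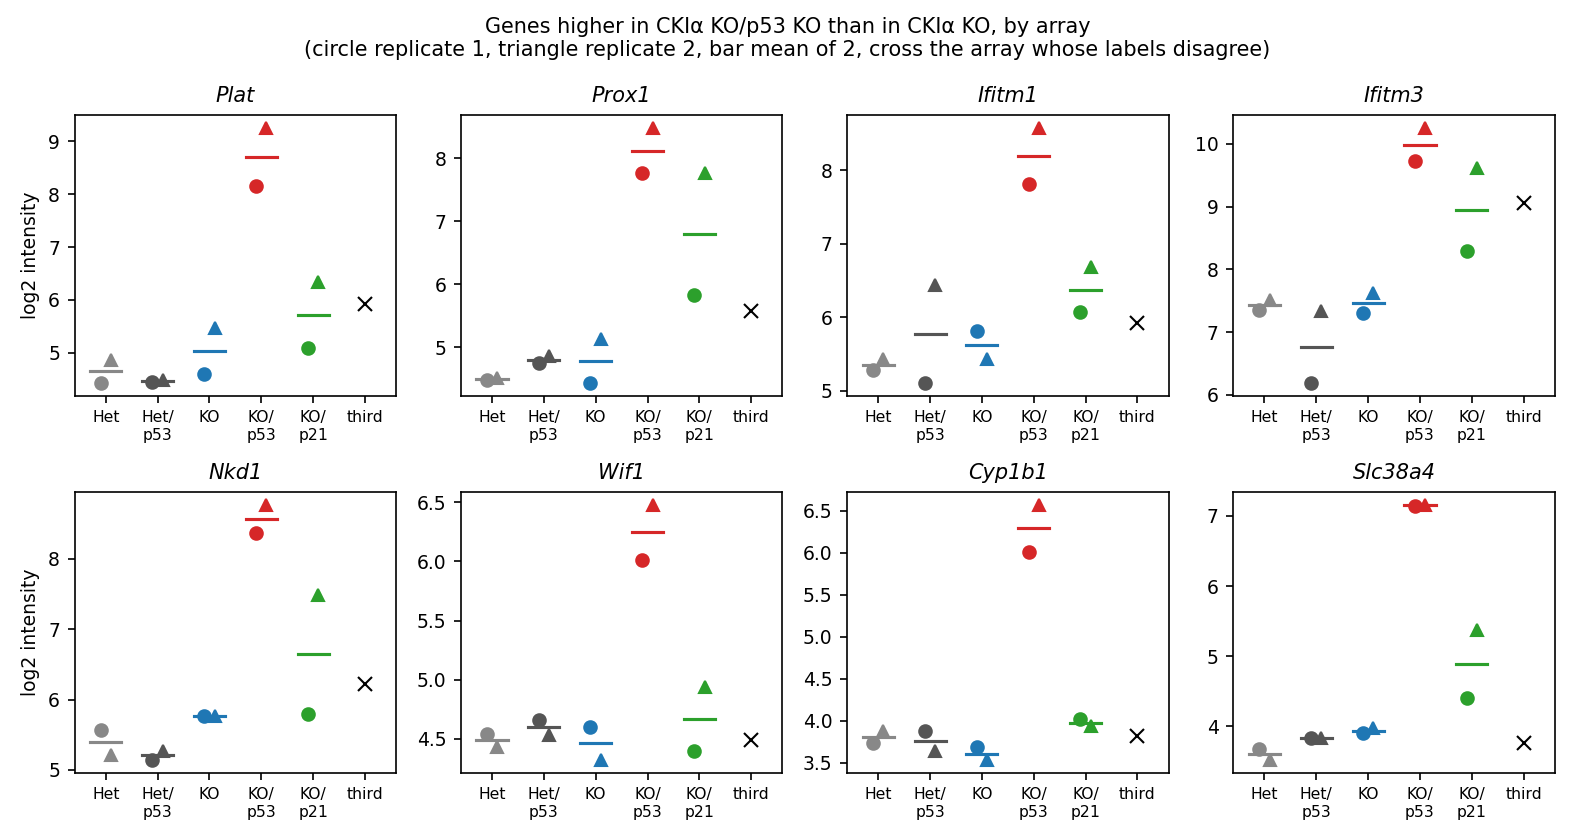
Log2 intensity (y axis) of 8 genes called higher in CKIα KO/p53 KO, on each array of 5 groups and on the third array (x axis); circles are replicate 1, triangles replicate 2, bars the mean of 2 arrays, and the cross is the array whose labels disagree. Cyp1b1 and Wif1 are raised in CKIα KO/p53 KO alone among the groups drawn. For Prox1 and Ifitm3 the CKIα KO/p21 KO mean lies in between, and for Prox1 the CKIα KO/p21 KO and CKIα KO/p53 KO arrays overlap.

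The promoters of Ccng1, which fell, and of Ifitm2 and Ifitm3, which rose, are shown because each holds the p53 consensus decamer, the unit that p53 binds in pairs. The sequences are the 250 bases before the gene start, from RefSeq on GRCm38.p6, all on the minus strand, at chr11:40755287-40755536 for Ccng1, chr7:140955962-140956211 for Ifitm2 and chr7:141010745-141010994 for Ifitm3. They run 5′ to 3′ along the gene, and capitals mark the decamers.
Ccng1: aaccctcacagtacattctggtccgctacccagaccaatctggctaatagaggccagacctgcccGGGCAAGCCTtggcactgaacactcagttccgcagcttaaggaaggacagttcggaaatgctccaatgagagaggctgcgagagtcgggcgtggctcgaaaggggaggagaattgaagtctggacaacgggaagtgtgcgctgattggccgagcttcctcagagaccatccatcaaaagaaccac
Ifitm2: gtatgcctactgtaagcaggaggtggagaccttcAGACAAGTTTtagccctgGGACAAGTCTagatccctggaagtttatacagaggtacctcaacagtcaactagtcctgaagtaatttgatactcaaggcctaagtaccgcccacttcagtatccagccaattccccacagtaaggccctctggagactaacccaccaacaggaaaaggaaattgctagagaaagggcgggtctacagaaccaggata
Ifitm3: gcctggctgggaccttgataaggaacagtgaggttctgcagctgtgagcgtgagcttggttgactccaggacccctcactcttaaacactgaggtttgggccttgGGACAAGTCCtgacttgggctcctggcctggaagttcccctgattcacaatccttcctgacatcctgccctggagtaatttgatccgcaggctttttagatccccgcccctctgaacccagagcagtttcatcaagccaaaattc
The decamer of Ccng1 lies 185 to 176 bases before the start. Ifitm2 holds 2 decamers, at 216 to 207 and 198 to 189 bases before the start with a gap of 8 bases, and Ifitm3 holds 1, at 145 to 136 bases. The decamer was searched by its consensus, which reads alike on both strands. It was found in 7.39% of the 13169 promoters of tested genes with an entry, in 8 of 64 promoters of genes called higher (12.5%), in 4 of 34 of genes called lower (11.8%) and in 10 of 41 of the p53 target lists (24.4%). A pair of decamers with a gap of at most 13 bases was found in 6 promoters, 0.0456% of all, Ifitm2 among them. A match describes the letters and shows no binding.

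Outside that list, the genes that rose most were of mixed function. Slc38a4, a transporter of neutral amino acids, had 3.91 and 3.97 in CKIα KO and 7.14 and 7.16 in CKIα KO/p53 KO (3.21 ± 0.25, 9.28-fold, adjusted p = 0.0011). Cyp1b1, which oxidises steroids and aromatic hydrocarbons, had 3.68 and 3.53 against 6.01 and 6.57 (2.68 ± 0.19, 6.42-fold, adjusted p = 0.000682). The groups lay far apart at both genes, and their replicates close together. The proteoglycan Spock2 (5.37 and 5.30 against 7.34 and 8.52, 2.60 ± 0.34, adjusted p = 0.0202), the lipase relative Pnliprp1 (3.76 and 3.81 against 5.82 and 6.82, 2.53 ± 0.32, adjusted p = 0.0182) and Bex1 (2.78 and 2.95 against 4.56 and 6.04, 2.44 ± 0.38, adjusted p = 0.0438) rose as well. So did Sox17, an endoderm transcription factor (3.99 and 3.82 against 5.29 and 6.96, 2.22 ± 0.41, adjusted p = 0.0476), where the CKIα KO/p53 KO replicates stood far apart, and Avil, an actin-binding protein of tuft cells (5.84 and 5.96 against 7.95 and 8.32, 2.24 ± 0.40, adjusted p = 0.046). Of the 21 alternatives, Spock2 and Pnliprp1 were called in 17, Bex1 in 9, and Sox17 and Avil in 8.

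Genes of retinoid uptake and storage moved in opposite directions. Stra6, the receptor that takes up retinol from its plasma carrier, had 5.45 and 5.62 in CKIα KO and 7.66 and 7.92 in CKIα KO/p53 KO (2.25 ± 0.26, adjusted p = 0.0137). Lrat, which esterifies retinol for storage, had 6.42 and 6.15 against 4.40 and 4.33 and fell by 1.92 ± 0.31 (adjusted p = 0.044). Stra6 was called in 18 of 21 alternatives and Lrat in 10. Both genes were chosen by the size of their change, and no list of retinoid genes was tested.

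Amino acid supply genes were among the other calls, and those not among the largest changes were picked after their values were seen. Slc7a11, the cystine transporter and a target of the antioxidant factor NRF2, had 4.10 and 4.23 in CKIα KO and 6.14 and 6.47 in CKIα KO/p53 KO (2.14 ± 0.23, adjusted p = 0.00961). The large amino acid transporter Slc7a5 rose by 1.69 ± 0.29 (adjusted p = 0.0458) and the serine synthesis enzyme Psat1 by 1.60 ± 0.19 (adjusted p = 0.0138). Slc7a11 was called in 18 of 21 alternatives, Psat1 in 17 and Slc7a5 in 7. Nfe2l2, the gene of NRF2 itself, moved the other way, with 10.30 and 10.10 against 9.23 and 8.52 (-1.32 ± 0.22, adjusted p = 0.0458, called in 10 of 21 alternatives). Slc7a11 and Nfe2l2 were the calls among 15 measured genes of the NRF2 type, whose median was -0.06, and the NRF2 targets Nqo1 (-0.12), Gclc (0.02) and Gclm (-0.14) did not pass.

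Wnt feedback inhibitors, which Wnt signalling induces against itself, had a median of 1.04 over 16 measured genes, beside -0.03 over all genes. Of the 16, 2 were called higher and 0 lower, where 0.466% and 0.227% of all genes tested were. Nkd1, which binds Dishevelled, had 5.77 on both CKIα KO arrays and 8.37 and 8.77 in CKIα KO/p53 KO (2.80 ± 0.42, 6.98-fold, adjusted p = 0.0412). It was called in 10 of 21 alternatives, and was lost without any single array of the groups compared. Wif1, a secreted protein that captures Wnt ligands, had 4.60 and 4.32 against 6.01 and 6.48 (1.78 ± 0.21, adjusted p = 0.0138, called in 17 of 21 alternatives). Both were low in all Het groups and on the CKIα KO arrays. At 10 of the 16 genes both CKIα KO/p53 KO arrays lay above both CKIα KO arrays, where 23.8% of all genes tested did so.

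Several other readouts of the pathway did not pass. Axin2, a scaffold of the destruction complex that Wnt induces, had 8.17 and 8.75 in CKIα KO and 9.20 and 9.23 in CKIα KO/p53 KO (0.76 ± 0.23, adjusted p = 0.103). The ubiquitin ligase Rnf43, which removes Wnt receptors, differed by 0.92 ± 0.32 (adjusted p = 0.135). The Wnt deacylase Notum had 4.49 and 6.87 against 7.81 and 8.84, and did not pass (2.64 ± 0.75, adjusted p = 0.0886). Of 18 other Wnt targets Prox1 was called higher and 0 lower, with a median of 1.07, and 16 lay above 0 and 2 below. At 12 both CKIα KO/p53 KO arrays lay above both CKIα KO arrays (23.8% of all genes tested). Myc, the growth regulator, had 6.86 and 8.90 against 9.22 and 9.44 (1.45 ± 0.55, adjusted p = 0.164), and the cyclins Ccnd1 (0.06 ± 0.43) and Ccnd2 (0.34 ± 0.32) had overlapping groups. Of 15 crypt base genes 0 were called (median 0.57), and 12 lay above 0 and 3 below. At 10 both CKIα KO/p53 KO arrays lay above both CKIα KO arrays (23.8% of all genes tested). The stem cell receptor Lgr5 had 4.70 and 4.67 against 6.65 and 5.90 (1.59 ± 0.31, adjusted p = 0.0547), and Olfm4, another marker of these cells, had overlapping groups (-0.38 ± 0.61). Of 14 genes of the destruction complex and its CK1 kinases 0 were called, with a median of 0.07.

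DNA replication and mitosis genes lay higher in CKIα KO/p53 KO as groups, but few passed alone. Of 27 measured replication genes all 27 had a difference above 0 (0.13 to 1.56, median 1.00), and at 25 both CKIα KO/p53 KO arrays lay above both CKIα KO arrays (23.8% of all genes tested). One was called, the helicase subunit Mcm2, with 7.03 on both CKIα KO arrays and 8.37 and 8.14 in CKIα KO/p53 KO (1.22 ± 0.21, adjusted p = 0.0458, called in 7 of 21 alternatives). The ribonucleotide reductase subunit Rrm1 had 8.31 and 8.20 against 9.86 and 9.77 (1.56 ± 0.32, adjusted p = 0.0577), and the primase Prim1 6.07 and 6.48 against 7.85 and 7.76 (1.54 ± 0.30, adjusted p = 0.0536). Of 24 measured mitosis genes all 24 lay above 0 (0.61 to 1.59, median 1.01), with both CKIα KO/p53 KO arrays above both CKIα KO arrays (23.8% of all genes tested). The spindle checkpoint gene Mad2l1 was called, with 7.68 and 7.62 against 9.17 and 9.31 (1.59 ± 0.27, adjusted p = 0.0458, called in 7 of 21 alternatives). The proliferation marker Mki67 had 8.0 and 7.5 against 8.64 and 8.74 (0.94 ± 0.31, adjusted p = 0.118). All genes of a list are read from the same 4 arrays, so their common direction is not a count of independent results.

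Genes of the DNA damage checkpoint and of repair followed the same direction. Of 19 measured genes 0 were called, all 19 lay above 0 (median 0.82), and 17 had both CKIα KO/p53 KO arrays above both CKIα KO arrays (23.8% of all genes tested). The checkpoint kinase Chek1 had 5.14 and 5.50 in CKIα KO and 7.0 and 6.51 in CKIα KO/p53 KO (1.44 ± 0.36, adjusted p = 0.068), and the helicase Blm 5.6 and 5.41 against 6.55 and 6.72 (1.13 ± 0.26, adjusted p = 0.0627). Of 18 genes of Myc and ribosome biogenesis 1 was called higher, the nucleolar protein Ncl, with 8.63 and 9.34 against 10.32 and 10.62 (1.49 ± 0.27, adjusted p = 0.0462, called in 7 of 21 alternatives). The list had a median of 1.03, and 15 of its genes had both arrays above both CKIα KO arrays, against 23.8% of all genes tested. Dhcr7, which makes cholesterol in its last step, was the call among 19 genes of cholesterol and fatty acid synthesis, with 7.90 and 7.71 against 8.90 and 8.97 (1.13 ± 0.15, adjusted p = 0.0202), in a list whose median was 0.55.

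Genes of mature absorptive cells lay lower. Of 16 measured brush border enzymes, which digest sugars, peptides and lipids at the gut surface, 0 were called, yet all 16 lay below 0 (median -1.17), and 14 had both CKIα KO/p53 KO arrays below both CKIα KO arrays (25.8% of all genes tested). Lactase (Lct) had 11.55 and 9.91 in CKIα KO and 8.47 and 6.84 in CKIα KO/p53 KO (-3.08 ± 0.94, adjusted p = 0.104), and the sphingomyelinase Enpp7 had 10.60 and 9.0 against 7.28 and 5.50 (-3.41 ± 0.91, adjusted p = 0.0806). The groups lay apart at both, and so did the replicates within each group. The peptidases Naaladl1 (11.41 and 10.61 against 9.12 and 8.15, -2.38 ± 0.45, adjusted p = 0.0518) and Mep1a (-2.75 ± 0.63, adjusted p = 0.0611) came nearer to the threshold. Mean levels of the 16 genes were 11.19 and 10.68 in CKIα KO and 9.83 and 9.05 in CKIα KO/p53 KO. In CKIα KO/p21 KO they were 11.2 and 9.61, so replicate 2 of that group was also low. Between CKIα KO/p53 KO and CKIα KO/p21 KO 0 of these genes were called (median -0.73). In these whole samples, fewer cells of a type and less RNA per cell cannot be told apart.

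Of 20 nutrient and vitamin transporters 1 was called lower, Amn, the partner of the vitamin B12 receptor, with 8.38 and 8.0 against 6.79 on both CKIα KO/p53 KO arrays (-1.40 ± 0.26, adjusted p = 0.0488, called in 5 of 21 alternatives). Their median was -0.77. Their mean level was 8.63 and 8.38 in CKIα KO/p53 KO, and 9.77 and 8.47 in CKIα KO/p21 KO. The vitamin C transporter Slc23a1 had 7.34 and 7.69 against 4.96 and 4.46 (-2.80 ± 0.79, adjusted p = 0.0874), and the glucose transporter relative Slc5a4a 7.39 and 6.46 against 3.93 and 4.55 (-2.68 ± 0.56, adjusted p = 0.0578). Lists of lipid absorption (20 genes, median -0.68) and of xenobiotic metabolism (27 genes, median -0.53) had 0 calls. Of 17 transcription factors of enterocyte and secretory fate 0 were called (median -0.31), and Hnf4g, a factor of mature enterocytes, differed by -1.24 (adjusted p = 0.065).

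Duox2, an oxidase that releases hydrogen peroxide at the gut surface, had 10.08 and 9.71 in CKIα KO and 8.44 and 7.70 in CKIα KO/p53 KO, beside 5.64 and 6.41 in CKIα Het. It fell by 1.82 ± 0.33 (adjusted p = 0.0472, called in 8 of 21 alternatives), to a level still above CKIα Het, and was the call among 9 oxidase genes. Its maturation factor Duoxa2 had 9.74 and 9.52 against 8.63 and 8.71 (-0.96 ± 0.33, adjusted p = 0.132). Other genes that fell were Myo7a, a myosin of actin bundles (7.88 and 7.28 against 5.97 and 6.08, -1.56 ± 0.19, adjusted p = 0.0182), the glycerate kinase Glyctk (6.55 and 6.39 against 5.08 and 4.92, -1.46 ± 0.19, adjusted p = 0.0206), the nucleoside transporter Slc28a3 (7.34 and 6.68 against 5.49 and 5.47, -1.53 ± 0.24, adjusted p = 0.0438) and the calcium-binding Ocm (5.99 and 6.62 against 4.60 and 4.48, -1.76 ± 0.31, adjusted p = 0.0458). The remaining falls among the largest were those of Kctd21 (-1.90 ± 0.34), Zfp239 (-1.64 ± 0.29), the lipase relative Pnpla1 (-1.57 ± 0.27), the innate immune kinase Ikbke (-1.48 ± 0.24) and Btnl5-ps, a pseudogene of a family of close relatives whose value is therefore uncertain (-1.56 ± 0.28).

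Markers of other cell types lay lower or higher beside these genes, and their part in the results was not tested. Of 12 absorptive enterocyte markers 0 were called, and their mean level was 12.31 and 12.17 in CKIα KO and 11.69 and 11.45 in CKIα KO/p53 KO. In CKIα KO/p21 KO it was 12.4 and 11.43. Goblet cell markers (13 genes, 0 called, median -0.50) and enteroendocrine markers (20 genes, 0 called, median -0.51) lay lower, the latter with both CKIα KO/p53 KO arrays below both CKIα KO arrays at 14 genes, where 25.8% of all genes tested did so. The goblet cell gene Clca1 had 12.15 and 11.61 against 10.69 and 9.16 (-1.96 ± 0.47, adjusted p = 0.0657), and the hormone gene Gip had 9.05 and 8.24 against 6.49 and 6.57 (-2.11 ± 0.53, adjusted p = 0.0701). Paneth cell markers (10 genes, 0 called) had a median of 0.63. Tuft cell markers (11 genes) had a median of -0.36, and Avil was the call among them.

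Markers of cells outside the epithelium passed in no case. Lymphocyte markers (13 genes, median -0.37) had a mean level of 7.33 and 6.88 in CKIα KO and of 7.18 and 6.08 in CKIα KO/p53 KO, and the groups overlapped. The leukocyte gene Ptprc had 9.30 and 8.46 against 8.67 and 6.85. Fibroblast and smooth muscle markers (11 genes, median -0.44) had a mean level of 5.69 and 5.56 against 5.40 and 5.39. Of these 9 lay below 0 and 2 above. At 8 both CKIα KO/p53 KO arrays lay below both CKIα KO arrays (25.8% of all genes tested). Myeloid markers (13 genes) had a median of -0.09 and endothelial markers (9 genes) one of 0.07, and the 2 red blood cell markers one of -0.05. On a log scale no marker is at 0, so absence of these cells cannot be read from the values.

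The invasion list and the other lists of tumour and injury biology had 0 calls. Of 20 invasion and mesenchymal genes the median was -0.11, and the membrane-bound protease Mmp14 had 7.12 and 7.78 against 8.53 and 8.66 (1.15 ± 0.38, adjusted p = 0.123). Of 15 fetal-like and regenerative genes the median was 0.82, and Clu, a chaperone of regenerating epithelium, had 5.46 and 6.70 against 8.28 and 8.42 (2.27 ± 0.49, adjusted p = 0.0578). Inflammatory and secreted factors (21 genes) had a median of 0.06 and iron handling genes (11 genes) one of 0.25. The iron reductase Cybrd1 shows the spread inside CKIα KO, with 7.72 and 11.81 there and 12.60 and 11.90 in CKIα KO/p53 KO (2.48 ± 1.01, adjusted p = 0.185).

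**Figure D4:**
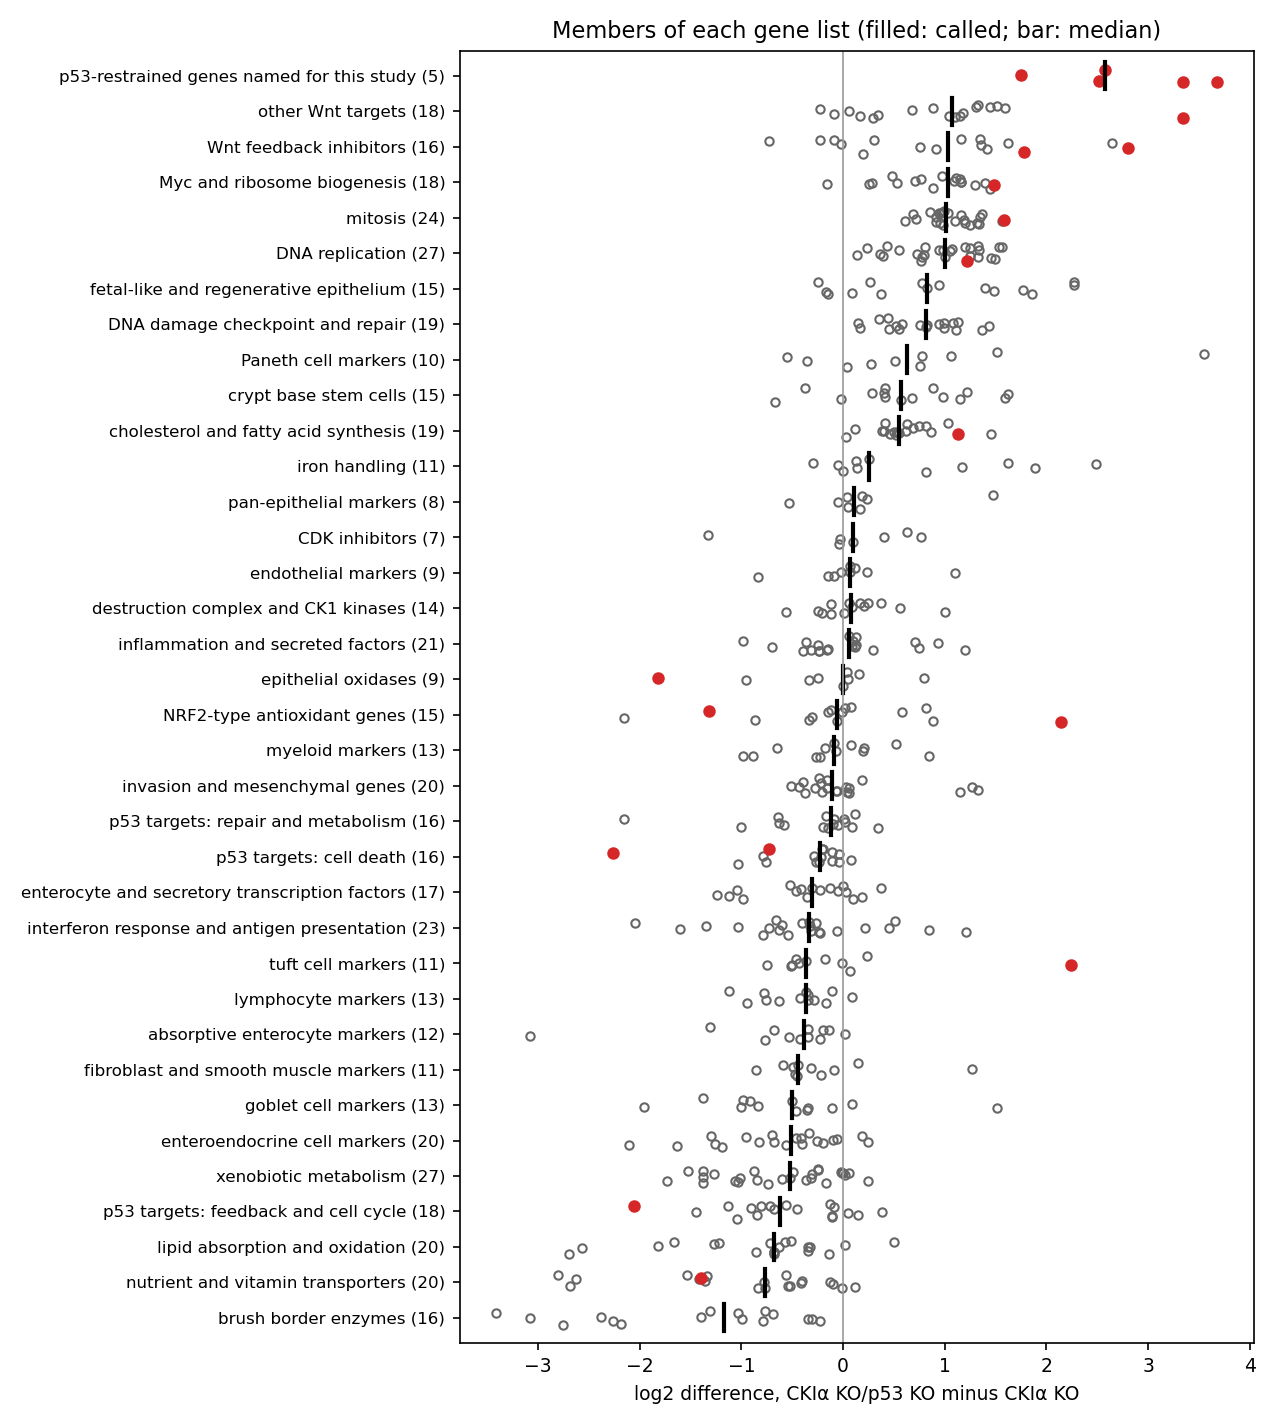
Log2 difference (CKIα KO/p53 KO minus CKIα KO, x axis) of every measured gene of 36 lists (y axis, number of genes in brackets); filled red circles are called genes, open circles the others, black bars the list median. The brush border list has the lowest median at -1.17 and the list named for this study the highest at 2.57.

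The same p53 difference was measured where 1 copy of CKIα remained. There limma called 0 genes in CKIα Het/p53 KO against CKIα Het, 941 genes had an unadjusted p under 0.05, and the smallest adjusted p was 0.788. A fit on those 4 arrays alone called 0 genes higher and 1 lower. Ccng1 had 9.55 and 9.66 in CKIα Het and 9.36 and 9.06 in CKIα Het/p53 KO (-0.39, adjusted p = 0.886), Eda2r differed by -0.22 (adjusted p = 0.968) and Plat by -0.17 (adjusted p = 0.983). The list medians were 0.08 for mitosis and -0.05 for DNA replication, and 0.27 for brush border enzymes.

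Whether the p53 difference itself depended on CKIα was tested by the difference of the 2 differences. It passed for 3 of 16721 genes (0.0179%), 2 higher (0.012%) and 1 lower (0.00598%), with 2485 genes at an unadjusted p under 0.05. Cyp1b1 had 3.73 and 3.88 in CKIα Het and 3.88 and 3.64 in CKIα Het/p53 KO, so that its rise in CKIα KO exceeded the difference in CKIα Het by 2.72 (adjusted p = 0.0154). Slc38a4 had 3.68 and 3.52 in CKIα Het and 3.83 on both CKIα Het/p53 KO arrays, and the difference of the differences was 2.98 (adjusted p = 0.0496). For Dglucy it was -2.45 (adjusted p = 0.0154). Each of these was lost when either array of CKIα Het, CKIα Het/p53 KO, CKIα KO or CKIα Het/p21 KO was left out, with an adjusted p for Cyp1b1 and Dglucy of 0.0576 to 0.162 and for Slc38a4 of 0.0838 to 0.434, while the values stayed between 2.60 and 2.84 for Cyp1b1. The call of Slc38a4 was also lost without CKIα KO/p53 KO replicate 1 (adjusted p = 0.0534) or 2 (0.117) without the filter on dim genes (0.0651), with the mean of probe sets (0.0513) and with the replicate block (0.0991), and that of Dglucy without CKIα KO/p53 KO replicate 2 (0.0525). With the third array added to CKIα KO/p53 KO all 3 were lost (adjusted p = 0.494 for Cyp1b1, 0.582 for Slc38a4 and 0.529 for Dglucy). Leaving out either CKIα KO/p21 KO array gave 142 higher and 101 lower, and leaving out CKIα KO/p53 KO replicate 1 or 2 gave 17 higher and 1 lower or 4 higher and 0 lower. For the other calls a dependence on CKIα was not shown, among them Ccng1 (-1.66, adjusted p = 0.169), Plat (3.86, adjusted p = 0.169), Nkd1 (2.99, adjusted p = 0.169) and Ifitm3 (3.19, adjusted p = 0.169).

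**Figure D5:**
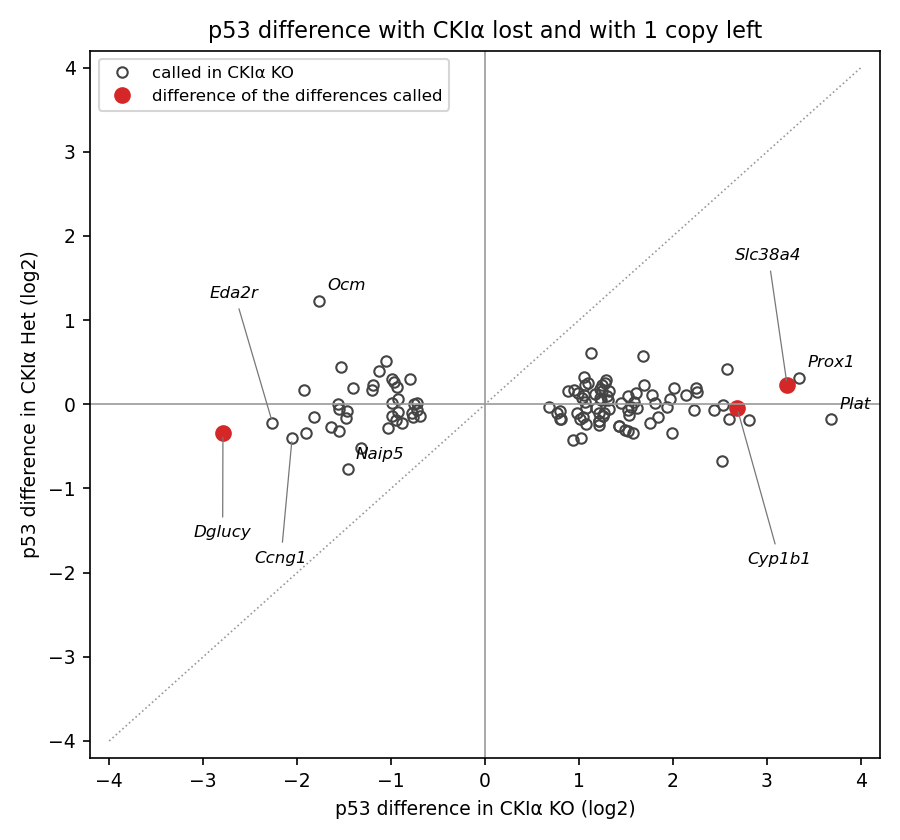
p53 difference in CKIα KO (log2, x axis) against the p53 difference in CKIα Het (log2, y axis) for the 116 genes called in CKIα KO; the dotted line marks equal differences, and red marks the 3 genes for which the difference of the differences was called. The points lie on both sides of the horizontal line at 0, with Ocm at 1.23 the highest. The genes were chosen by their x value, so the y values are the part of the plot that the choice did not use.

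Set against CKIα KO/p21 KO, the arrays that lack p21 in place of p53, CKIα KO/p53 KO had 19 genes higher and 36 lower, 0.114% and 0.215% of the genes tested. This comparison shares the CKIα KO/p53 KO arrays with the main one, and its values are set beside those above without a test of overlap. Of the feedback and cell cycle list 8 of 18 were called lower (Ccng1, Psrc1, Zmat3, Sesn2, Mdm2, Mdm4, Pvt1 and Gtse1), of the cell death list 2 of 16 (Eda2r and Tnfrsf10b) and of the repair and metabolism list 2 of 16 (Polk and Ercc5). Eda2r had 3.21 and 3.25 in CKIα KO/p53 KO and 6.62 and 7.55 in CKIα KO/p21 KO (-3.85, adjusted p = 0.00424), and Psrc1 had 5.06 and 4.95 against 7.64 and 8.67 (-3.15, adjusted p = 0.00424). Ccng1 had 9.06 and 8.91 against 11.58 and 11.80 (-2.71, adjusted p = 0.0016). Since CKIα KO/p21 KO arrays lay above CKIα KO at these genes, though without passing for Eda2r (1.59, adjusted p = 0.202) or Ccng1 (0.66, adjusted p = 0.335), the gap was wider than that to CKIα KO.

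Other genes among the lower ones were not part of the difference from CKIα KO. Rab44, a small GTPase, had 5.03 and 4.65 in CKIα KO/p53 KO, 4.86 and 4.73 in CKIα KO, and 8.51 and 8.23 in CKIα KO/p21 KO (-3.53 for CKIα KO/p53 KO minus CKIα KO/p21 KO, adjusted p = 0.000254). Rab44 was also high in CKIα Het/p21 KO, at 7.53 and 8.17, so it was high in both groups with p21 knocked out. Why it was high there was not tested. In complement factor I (Cfi), too, CKIα KO/p21 KO stood above the other groups, with 4.69 and 4.49, 3.91 and 4.65, and 6.84 and 7.27 (-2.47, adjusted p = 0.00424). The third array had Cfi at 6.82 and Rab44 at 5.23. Rab44 lay outside all lists, and these genes are described because they head the lower calls.

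The genes higher in CKIα KO/p53 KO than in CKIα KO/p21 KO were led by Plat (8.16 and 9.26 against 5.09 and 6.33, 3.01, adjusted p = 0.0309), Spock2 (2.42, adjusted p = 0.0226), Cyp1b1 (6.01 and 6.57 against 4.02 and 3.93, 2.31, adjusted p = 0.00146) and Slc38a4 (7.14 and 7.16 against 4.41 and 5.37, 2.26, adjusted p = 0.00861). Wif1 also passed (1.57, adjusted p = 0.0208), as did Slc7a11 (1.70, adjusted p = 0.0208) and Stra6 (1.92, adjusted p = 0.0208). Prox1 had 5.83 and 7.77 in CKIα KO/p21 KO and did not pass (1.32, adjusted p = 0.467), nor did Ifitm1 (1.82, adjusted p = 0.144) or Ifitm3 (1.04, adjusted p = 0.529). Of the replication and mitosis lists 0 genes were called between these groups, with medians of -0.00 and 0.17, and Mcm2 had 8.05 and 8.78 in CKIα KO/p21 KO beside 8.37 and 8.14 in CKIα KO/p53 KO. The CKIα KO/p21 KO arrays lay on either side of CKIα KO/p53 KO. Mean levels of the replication list were 7.09 and 7.94 against 7.49 and 7.39, and of the mitosis list 7.28 and 8.22 against 7.84 and 7.93. The medians therefore do not show equal levels. CKIα KO/p21 KO was the group with the widest replicate spread (SD 0.341), and the comparison gave 64 higher and 157 lower without its replicate 2, against 18 and 32 without replicate 1. It gave 13 and 6 without CKIα KO/p53 KO replicate 2 and 53 and 25 without replicate 1 of that group. Leaving out either CKIα KO array gave 40 and 39, and leaving out an array of the Het groups gave 10 to 12 higher and 19 to 24 lower.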

How the data were processed

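RNA of cells labelled enterocyte was measured on 13 Affymetrix arrays. Per the labels' protocols, the authors extracted intensities with Affymetrix Expression Console 1.1 (RMA Sketch) and normalized them by the median. The scale of the deposited values is log2, a base that no label states and that was taken from their range (array medians 4.96 to 5.118).

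Of 35556 probe sets, 21789 carried 1 gene symbol in the platform annotation, 1621 several and 12146 none, and the last 2 kinds were not used. Of 999 genes with several probe sets the brightest was kept. Genes above the 25th percentile of an array on at least 2 of 12 arrays were tested. The 12 arrays titled replicate 1 or 2 entered 1 fit of limma 3.58.1 (R 4.3.3; 1 coefficient a group, 6 residual degrees of freedom, two-sided, Benjamini-Hochberg within each comparison). The script was also run on simulated data in which all groups shared 1 spread per gene. That run does not cover the unequal spread of the groups here.

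Named genes are the called genes with the largest differences in each direction of each comparison, the targeted genes, and members of the lists; predicted, Riken, olfactory, vomeronasal, immunoglobulin and T cell receptor symbols were passed over. The members, lists and tests were chosen with earlier results of these data known. Alternatives were no filter, quantile normalization, an intensity trend, array weights, the arrays compared alone, the mean of probe sets, a replicate block, the third array added to either group, and each array left out.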

Additional observations from a re-analysis of the deposited data

Results flagged for a closer look

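The p53 difference differed between CKIα KO and CKIα Het for 3 genes by limma's test of the difference itself. It was 2.72 for Cyp1b1, 2.98 for Slc38a4 and -2.45 for Dglucy. Slc38a4 had 4.41 and 5.37 in CKIα KO/p21 KO beside 3.91 and 3.97 in CKIα KO and 7.14 and 7.16 in CKIα KO/p53 KO. Their calls were lost without single arrays and with the third array added to CKIα KO/p53 KO, as given with the comparison.

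The third array, which entered no test, lay nearer to the CKIα KO mean than to the CKIα KO/p53 KO mean at 27 of the 38 genes called lower in CKIα KO/p53 KO, although its title names it CKIalpha KO/p53 KO. Its genotype and source label name CKI KO. At 13 of the 38 genes it was at or beyond a CKIα KO array, and at 0 a CKIα KO/p53 KO array. Of the 78 genes called higher, it was at or beyond a CKIα KO array at 23 and a CKIα KO/p53 KO array at 2. Which label is right was not tested.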

How the results depend on the processing

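For p53 loss in CKIα KO (78 genes higher, 38 lower), the counts were 99 and 69 after quantile normalization, 19 and 6 with array weights, 11 and 16 with the arrays compared alone, 218 and 120 with the replicate block, and 0 and 0 with the third array added to CKIα KO/p53 KO. Leaving out 1 array gave 3 to 910 higher and 1 to 535 lower. In CKIα Het the count lower was 1 with the arrays compared alone, and leaving out 1 array gave 0 to 0 higher and 0 to 2 lower. For the difference between CKIα KO and CKIα Het (2 higher, 1 lower), the count higher was 1 without the filter, with the mean of probe sets and with the replicate block. After quantile normalization 3 were higher and 2 lower, and with the third array in CKIα KO/p53 KO 0 and 0. Leaving out 1 array gave 0 to 142 higher and 0 to 101 lower. Against CKIα KO/p21 KO (19 higher, 36 lower), array weights gave 22 lower and the third array in CKIα KO/p53 KO 0 higher and 1 lower, and leaving out 1 array gave 10 to 64 higher and 6 to 157 lower. The cause of these changes was not tested. Leaving out arrays outside a contrast was chosen after seeing the data.

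The other counts stayed within 1.5 times the counts above. No called gene changed sign, though most alternatives alter only the spread and could change none. Same-numbered arrays had correlations of deviations from -0.162 to 0.248 (0.0305 between CKIα KO and CKIα KO/p53 KO), so they were not taken as pairs by that measure, although Xist was low on replicate 1 and high on replicate 2 of the groups compared. Detection of probe sets above background was not used here, so which dim levels are background was not tested.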
